A study of Heterocephalus glaber and Mus musculus with 9 samples.

Results

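Mitochondria keep a ribosome of their own, which translates the few messenger RNAs of the mitochondrial genome into core subunits of the respiratory chain and of ATP synthase. Its ribosomal RNAs are made inside the organelle, whereas all of its proteins are encoded in the nucleus, made in the cytosol and imported. The genes named Mrpl and Mrps encode most proteins of its large and small subunit. Developing red blood cells, which are made in the red pulp of rodent spleens, depend on mitochondria for haem synthesis.

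The mitochondrial ribosomal protein genes were taken as the rows of the spleen expression table whose symbol starts with Mrpl or Mrps and a digit. The rule found 61 of 12946 genes, 38 Mrpl and 23 Mrps, and used no expression value. In the mouse annotation 77 coding gene names fit the same rule, and the other 16, among them Mrpl18, Mrpl44, Mrps17 and Mrps35, were not analysed here. RNA was measured in the spleens of 3 C57Bl/6N wild-type male mice aged 2 months, of 3 naked mole-rats (NM-Rs) with small spleens (ssNM-R) and of 3 NM-Rs with large spleens (lsNM-R). The ssNM-Rs (animals 2, 3 and 6) were males of 30, 26 and 23 months, and the lsNM-Rs were a male of 24 months (animal 1), a female of 29 months (animal 4) and a male of 23 months (animal 5). All 9 animals were healthy and untreated, with 1 library per animal. The mice were younger than every NM-R and were kept cooler, so species, age and housing cannot be told apart in the comparisons with mice.

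Values are normalized counts, in which the reads of each gene were scaled by a single size factor for the library and gene length was left uncorrected. The reads of the mouse and NM-R libraries were counted on different genomes and gene models, so a difference between the species also holds any difference in transcript length and annotation. Summed over the genes of the table, the mouse libraries held 10441982 to 11180912 reads. The ssNM-R libraries held 7815326 to 18219644 and the lsNM-R libraries 8327759 to 18387599. Reads outside these genes are not included, so these are not whole library sizes. No mitochondrial ribosomal protein gene was at 0 in any spleen, and the lowest count was 30 reads. All 9 erythroid markers in the table were higher in NM-Rs than in mice and all 8 B cell markers and all 8 T cell markers were lower, by limma with adjustment over all genes. In a whole organ, fewer cells of a type and less RNA per cell cannot be told apart.

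Compared to mice, NM-R spleens had higher summed normalized counts of the mitochondrial ribosomal protein genes. Together the 61 genes gave 22378, 24165 and 26425 normalized counts in mice 1, 2 and 3. The sums were 38751, 37157 and 38772 in ssNM-Rs 2, 3 and 6 and 33402, 37907 and 35442 in lsNM-Rs 1, 4 and 5. Every NM-R thus lay above every mouse, and the cohorts overlapped. As CPM, counts scaled to equal totals over the genes of the table, the genes took 2140 ± 152 (SD, n = 3) in mice. The ssNM-Rs had 3229 ± 120 and the lsNM-Rs 3033 ± 176.

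**Figure D1:**
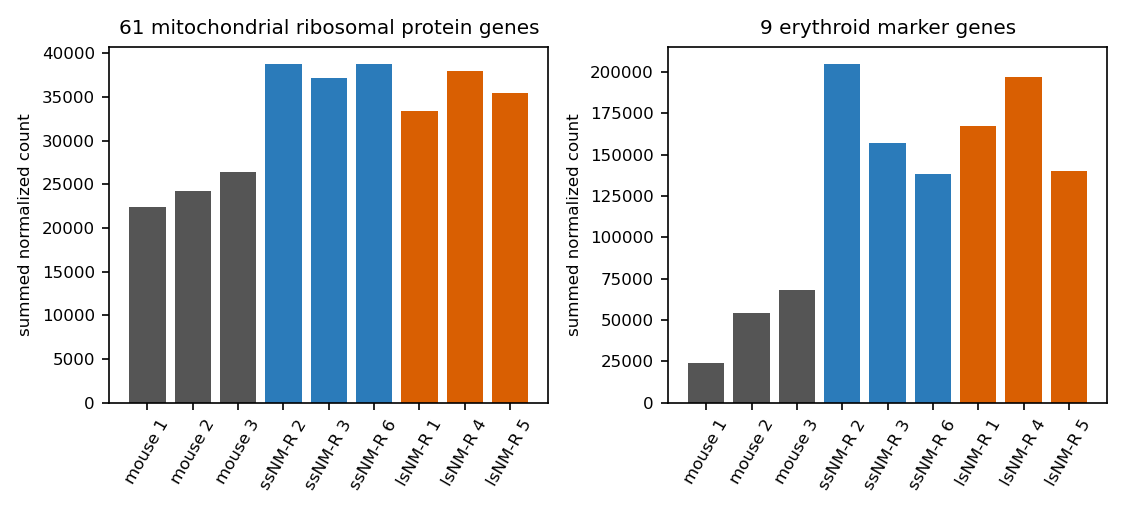
Summed normalized count per spleen (y axis) of the 61 mitochondrial ribosomal protein genes (left) and of 9 erythroid marker genes (right), with mice in grey, ssNM-Rs in blue and lsNM-Rs in orange. Each bar is 1 spleen. All NM-R bars stand above all mouse bars in both panels, and mouse 1 has the lowest bar in both, at 22378 and 24102.

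Gene by gene, 40 of the 61 were higher in NM-Rs than in mice, 7 were lower and 14 did not pass the test (limma on log2(normalized count + 1), adjusted p under 0.05 over all genes). The species differ in most of the transcriptome, so the background is high: 39.7% of all genes were called higher and 38.8% lower. The median log2 fold change was 0.58 over the 61 genes and 0.01 over all genes. In 38 of the 61 genes every NM-R spleen lay above every mouse spleen, in 3 every one lay below, and in 20 the species overlapped, while 36.4% of all genes lay wholly above and 36.2% wholly below. A ratio of mean normalized counts of at least 2 was reached by 18 genes in the upward and by 2 in the downward direction.

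**Figure D2:**
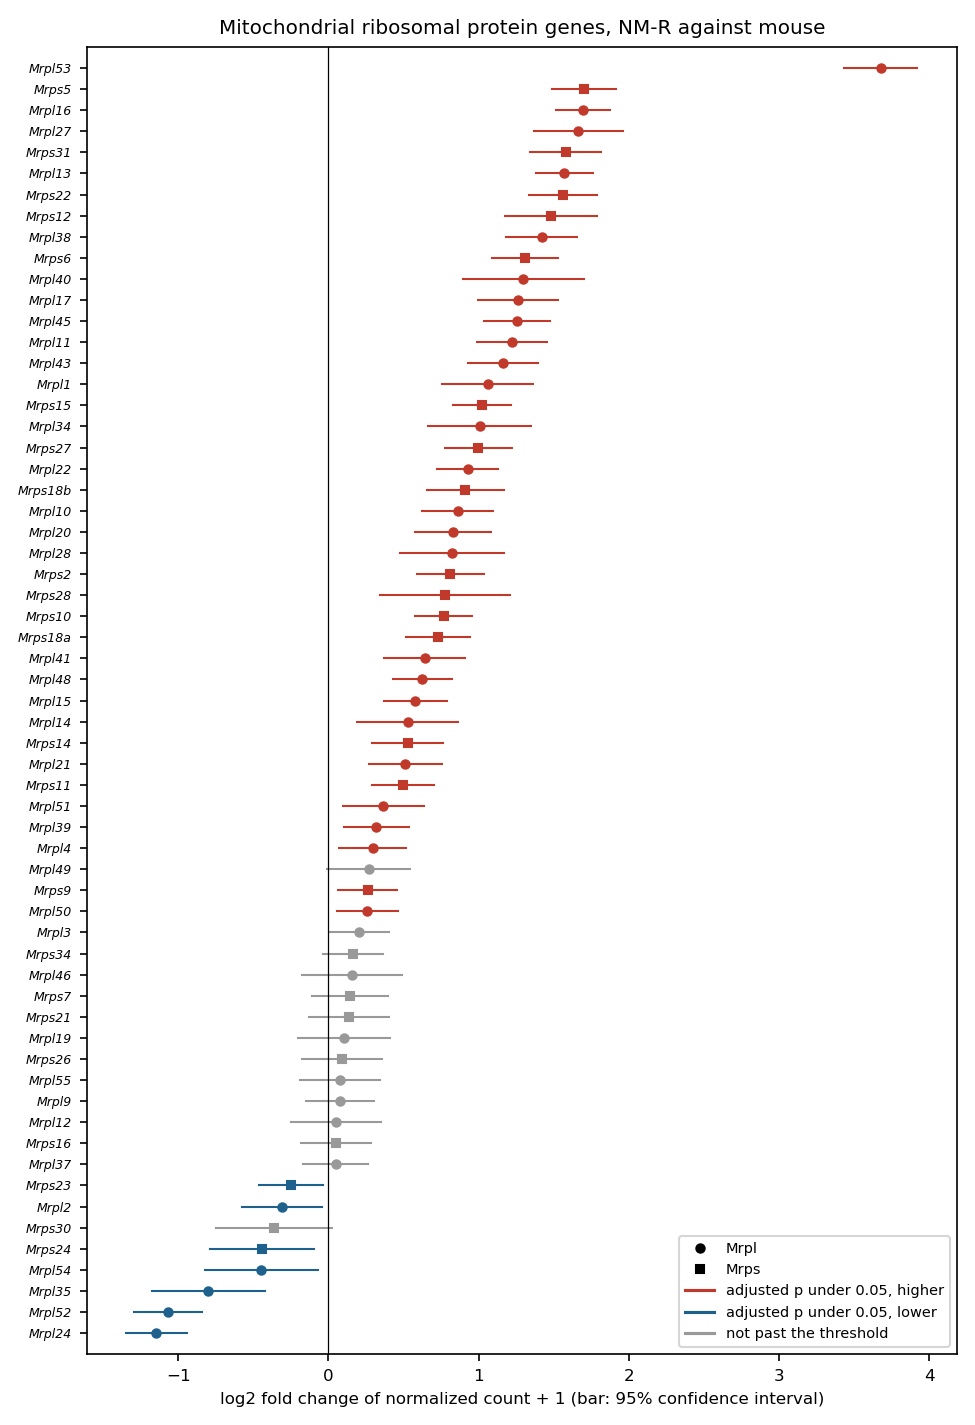
Log2 fold change of normalized count + 1 in NM-Rs against mice (x axis, mean of both cohorts) for each of the 61 genes, ranked; bars are 95% confidence intervals, circles are Mrpl and squares Mrps genes. Red marks the 40 genes called higher, blue the 7 called lower and grey the 14 not called; Mrpl53 stands apart at 3.68, and the lowest, Mrpl24, is at -1.15.

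Genes called higher were found in both subunits, among proteins shared with bacteria and among those particular to mitochondria. Of 14 small-subunit proteins with a bacterial counterpart, 10 were higher and 1 was lower, with a median log2 fold change of 0.65. Of 7 small-subunit proteins classed as particular to mitochondria, 4 were higher and 1 was lower (median 0.91). The 7 include Mrps18b, itself at 0.91, although its paralogue Mrps18a was classed with the proteins related to bacterial ones. The median of this class thus rests on that assignment. Among 23 large-subunit proteins related to bacterial ones, 16 were higher and 3 were lower (median 0.73). That median is the value of Mrps18a, a relative of bacterial S18, so it too rests on the assignment of this gene. Among 17 large-subunit proteins particular to mitochondria, 10 were higher and 2 were lower (median 0.32). The split by subunit follows the known structure and not the symbol, since Mrps18a and Mrps30 sit in the large subunit despite their names. No test between the classes was made.

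The small subunit reads the messenger RNA. Mrps5 (chr2:127412958-127432565, plus strand; coordinates are those of the mouse build mm9 throughout), a relative of bacterial S5 near the channel through which messenger RNA enters, stood at 451, 466 and 526 normalized counts in mice. It stood at 1753, 1494 and 1638 in ssNM-Rs and at 1377, 1678 and 1484 in lsNM-Rs. All 6 NM-Rs were above all mice, 3.26-fold on the means (log2 fold change 1.70 ± 0.10 SE, limma adjusted p 1.31e-07). Mrps12 (chr7:29524660-29526839, minus strand), whose bacterial relative lies at the decoding centre, had 201, 235 and 260 counts in mice. Its values were 779, 695 and 633 in ssNM-Rs and 517, 733 and 564 in lsNM-Rs. The groups of the species did not overlap, and the log2 fold change was 1.48 ± 0.14 SE (limma adjusted p 4.12e-06).

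Other small-subunit genes rose to a like degree. Mrps22 (chr9:98489152-98502098, minus strand), which bacteria lack and which is mutated in an inherited respiratory chain deficiency, had 174, 198 and 212 counts in mice, 563, 573 and 621 in ssNM-Rs and 537, 539 and 617 in lsNM-Rs. It was 2.96-fold higher (log2 fold change 1.56 ± 0.10 SE, limma adjusted p 3.22e-07), with no overlap between the species. Mrps31 (chr8:23521812-23540137, plus strand), another protein of mitochondria alone, had 167, 163 and 188 counts in mice, 498, 456 and 545 in ssNM-Rs and 480, 562 and 568 in lsNM-Rs. Its mean was 3.01-fold higher, with all NM-Rs above all mice (limma adjusted p 4.33e-07). Mrps6 (chr16:92058515-92112472, plus strand), a relative of bacterial S6, was close to constant within mice at 156, 159 and 153. It reached 365, 339 and 358 in ssNM-Rs and 410, 471 and 395 in lsNM-Rs, with no overlap with mice (log2 fold change 1.31 ± 0.10 SE, limma adjusted p 9.53e-07). In mouse, 43.8% of the exon bases of Mrps6 also belong to Slc5a3 on the same strand, and Slc5a3 itself had 181 to 192 counts in mice and 56.2 to 221 in NM-Rs. Reads there cannot be assigned to either gene with certainty.

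The small-subunit genes named next rose less or did not pass, and Mrps24 and Mrps23, given below, were called lower. Mrps18b was 1.89-fold higher, from 305 ± 19.3 (SD, n = 3) in mice to 576 ± 63.1 (n = 6), but 1 stretch elsewhere in the mouse genome is 99.1% identical to its transcript, so its mouse count is uncertain. Mrps2 and Mrps10 were 1.76-fold and 1.71-fold higher, with every NM-R above every mouse in both genes. Mrps9 was the nearest to the threshold among the small-subunit genes called higher. It rose by a log2 fold change of 0.26 (limma adjusted p 0.0189), a call lost without mouse 2, with equal totals and with sample number as a block. The block gives NM-Rs 4, 5 and 6 no weight, since their numbers occur once. Mrps16, in which a mutation causes a fatal respiratory chain disorder of newborns, had 335, 397 and 408 counts in mice and 338 to 438 in NM-Rs. The species overlapped, and the 95% confidence interval of the log2 fold change ran from -0.18 to 0.28. Mrps34, needed for the stability of the small subunit, had 448, 459 and 501 counts in mice and 436 to 598 in NM-Rs (interval -0.03 to 0.36), and most of its exon bases overlap neighbouring genes.

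The large subunit joins amino acids and passes the new chain to the inner membrane. Mrpl16 (chr19:11844881-11849434, plus strand), a core protein close to the catalytic centre, had 290.0, 321 and 335 counts in mice. It had 1117, 1058 and 1103 in ssNM-Rs and 901, 968 and 994 in lsNM-Rs. That was a 3.25-fold rise with the smallest standard error among the 5 genes with the largest rises (log2 fold change 1.70 ± 0.08 SE, limma adjusted p 4.82e-08). Mrpl27 (chr11:94515081-94521403, plus strand), whose bacterial relative reaches into the catalytic centre, had 226, 197 and 310 counts in mice, 849, 854 and 813 in ssNM-Rs and 706, 705 and 668 in lsNM-Rs. It rose 3.13-fold (limma adjusted p 1.37e-06), and its spread between mice was the widest of all 61 genes, with a coefficient of variation of 24.2%.

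Mrpl13 (chr15:55365649-55389303, minus strand), also shared with bacteria, had 336, 382 and 406 counts in mice, 1257, 1161 and 1138 in ssNM-Rs and 1051, 1039 and 1043 in lsNM-Rs, a 2.98-fold rise (limma adjusted p 9.92e-08). Mrpl38 (chr11:115993131-116000182, minus strand), a protein of the central protuberance that bacteria lack, had 405, 457 and 517 counts in mice, 1418, 1185 and 1335 in ssNM-Rs and 1048, 1255 and 1144 in lsNM-Rs, a 2.68-fold rise (limma adjusted p 8.6e-07). In both genes the highest mouse was far below the lowest NM-R. Mrpl45, which holds the ribosome to the inner membrane at the exit of the peptide tunnel, was 2.39-fold higher. Mrpl43 and Mrpl1 were 2.24-fold and 2.11-fold higher, again without overlap between the species.

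The gene with the largest difference was Mrpl53 (chr6:83059089-83059933, plus strand), a large-subunit protein that bacteria lack. It had 34.1, 37.0 and 31.5 counts in mice, 432, 411 and 419 in ssNM-Rs and 453, 482 and 500.4 in lsNM-Rs. The mean was 13.2-fold higher (log2 fold change 3.68 ± 0.11 SE, limma adjusted p 2.26e-09), which set it far from the other members. In the mouse annotation 87.1% of its exon bases also belong to Ccdc142 on the same strand. Ccdc142 had 259 to 307 counts in mice and 118 to 179 in NM-Rs, the opposite direction. How the reads shared by both genes were counted was not tested, and the mouse level of Mrpl53 is therefore uncertain.

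The stalk of the large subunit, where translation factors dock, did not move as one. Mrpl10, the stalk base, rose 1.82-fold from 646 ± 55.3 (SD, n = 3) to 1176 ± 123 (n = 6), and Mrpl11, which lies beside it, rose 2.35-fold from 299 ± 16.2 to 703 ± 74.3. Mrpl12, the stalk protein itself, had 489, 665 and 632 counts in mice, 595, 602 and 685 in ssNM-Rs and 501, 696 and 614 in lsNM-Rs. For Mrpl12 the species overlapped and the 95% confidence interval of the log2 fold change ran from -0.25 to 0.35. Mrpl3, near the catalytic centre, was 1.15-fold higher and missed the threshold narrowly (limma adjusted p 0.0545). Mrps18a, a relative of bacterial S18 in the large subunit, rose 1.66-fold from 402 ± 28.5 to 670 ± 83.3. Mrpl48 rose 1.55-fold and Mrpl4 1.23-fold, and Mrpl50 had a log2 fold change of 0.26. The calls of Mrpl4 and Mrpl50 were lost without mouse 1 or without mouse 2, and that of Mrpl50 also with equal totals and with the block.

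A few large-subunit genes went against the rest. Mrpl24 (chr3:87723428-87727594, plus strand), a relative of bacterial L24 at the mouth of the peptide tunnel, had 1411, 1371 and 1468 counts in mice. It had 663, 673 and 645 in ssNM-Rs and 556, 709 and 601 in lsNM-Rs. Every NM-R lay below every mouse, and the mouse mean was 2.21-fold that of NM-Rs (log2 fold change -1.15 ± 0.09 SE, limma adjusted p 1.26e-06). This gene had the highest count of the 61 in mice. In mouse 26.3% of its exon bases overlap Rrnad1 on the opposite strand; Rrnad1 had 577 to 640 counts in mice and 274 to 333 in NM-Rs.

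Mrpl52 (chr14:55045746-55048587, plus strand), a protein of mitochondria alone, had 451, 483 and 497 counts in mice, 227, 231 and 258 in ssNM-Rs and 201, 214 and 233 in lsNM-Rs. The mouse mean was 2.10-fold that of NM-Rs (log2 fold change -1.07 ± 0.10 SE, limma adjusted p 4.83e-06), and its exons overlap no other gene. Mrpl35 (chr6:71762997-71773804, minus strand), a relative of bacterial L35, had 242, 265 and 329 counts in mice, 194, 174 and 130 in ssNM-Rs and 165, 166 and 131 in lsNM-Rs. The mouse mean was 1.74-fold higher, again without overlap between the species (limma adjusted p 0.00148). The other 4 genes called lower were Mrpl54, Mrps24, Mrpl2 and Mrps23, at log2 fold changes of -0.45, -0.44, -0.31 and -0.25. In all 4 the species overlapped, and without mouse 2 or without mouse 3 only Mrpl24, Mrpl52 and Mrpl35 stayed past the threshold. Without lsNM-R 1 these and Mrps24 did.

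**Figure D3:**
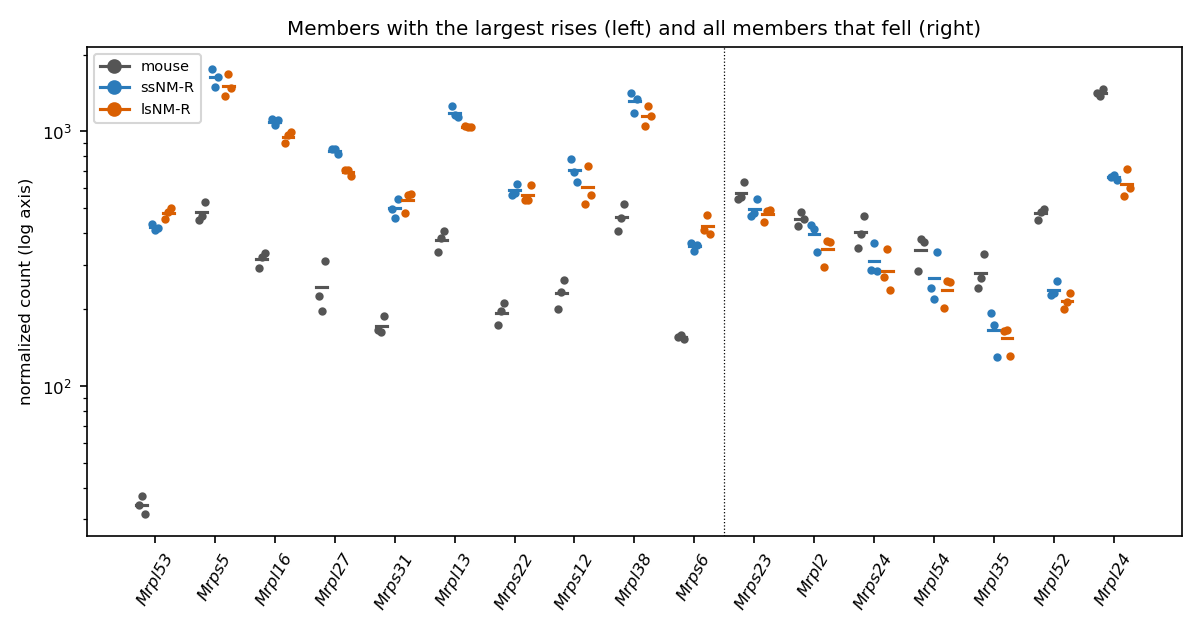
Normalized count (y axis, log scale) in each spleen for the 10 genes with the largest rises (left of the dotted line) and the 7 genes called lower (right), with mice in grey, ssNM-Rs in blue and lsNM-Rs in orange; points are spleens and bars group means. The 10 genes on the left and Mrpl35, Mrpl52 and Mrpl24 on the right show no overlap between the species.

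Levels of different genes can be set side by side only per length, and exon lengths were at hand for mouse alone. On the scale of normalized counts per kilobase of annotated mouse exon, the highest mouse means were those of Mrpl52 at 1157 ± 57.8 (SD, n = 3), Mrps16 at 671 ± 69.3 and Mrpl24 at 628 ± 21.7. The lowest were Mrps10 at 43.3 ± 0.931, Mrpl53 at 46.5 ± 3.74 and Mrpl1 at 46.9 ± 2.06, followed by Mrpl13 at 47.2 ± 4.46 and Mrpl48 at 60.1 ± 2.55. By the larger SD of each pair, Mrpl53, Mrpl1 and Mrpl13 lay within 1 SD of one another, and so did Mrps16 and Mrpl24. Mrps10 lay within 1 SD of Mrpl53 and of Mrpl13 by the same measure, so it is not set apart as the lowest. Mrpl4 and Mrpl43 completed the highest 5. The lengths take the union of all annotated exons, 8.08 kb for Mrps10 and 7.94 kb for Mrpl13, so a gene with long, rarely used exons can be put too low. Exon bases shared with another gene on the same strand, 87.1% in Mrpl53 and 30.4% in Mrpl48, were kept in the length. The low rank of these genes is therefore uncertain.

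Each cohort was also set against the same 3 mice. In ssNM-Rs 42 genes were higher and 3 lower than in mice (limma; background 38.0% and 37.5% of all genes), with a median log2 fold change of 0.63. In lsNM-Rs 36 were higher and 7 lower (background 38.1% and 37.0%), with a median of 0.55. Both comparisons use the same mice. Mrps5 had log2 fold changes of 1.76 in ssNM-Rs and 1.65 in lsNM-Rs, Mrpl27 of 1.80 and 1.53, and Mrpl53 of 3.59 and 3.77. On the lower side Mrpl24 stood at -1.10 and -1.19 and Mrpl35 at -0.75 and -0.85. Mrps34 had the smallest p in the direct test between the cohorts (log2 fold change against mice 0.30, limma adjusted p 0.022, in ssNM-Rs and 0.03, adjusted p 0.807, in lsNM-Rs), and that test did not pass adjustment (limma adjusted p 0.525).

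Small and large NM-R spleens were set against each other directly. None of the 61 genes passed (limma adjusted p under 0.05; 0 of all 12946 genes did). DESeq2 on the recovered reads also called 0 of the 61, against 0.440% of all genes, and edgeR called 0 of all genes. The median log2 fold change of lsNM-R against ssNM-R was -0.11 over the 61 genes and 0.01 over all genes, with 49 of the 61 negative. It was -0.18 without lsNM-R 4 and -0.07 without lsNM-R 1. The 32 cytosolic ribosomal protein rows had a median of -0.20 with 32 negative, and the 62 rows of nuclear-encoded respiratory chain subunits a median of -0.18 with 59 negative, both farther from 0 than the 61 genes. Before adjustment 4 genes had a p under 0.05, 1 higher and 3 lower in lsNM-Rs, where 5.24% and 3.55% of all genes did. In 14 genes every lsNM-R lay below every ssNM-R and in 2 every one lay above, against 6.23% and 6.84% of all genes.

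Those with the smallest p were Mrps34, Mrpl55, Mrps6, Mrps18a and Mrps2. Mrpl55, a large-subunit protein that bacteria lack, had 217, 218 and 219 counts in ssNM-Rs and 168, 172 and 171 in lsNM-Rs, with no overlap (log2 fold change -0.36 ± 0.14 SE; limma p 0.0283, adjusted 0.534). Mice had 166, 171 and 215, all below the ssNM-Rs and overlapping the lsNM-Rs. Mrps34 had 598, 567 and 564 counts in ssNM-Rs against 493, 508 and 436 in lsNM-Rs (log2 fold change -0.27, limma adjusted p 0.525). Mrps6 went the other way, at 339 to 365 in ssNM-Rs and 395 to 471 in lsNM-Rs (0.26, limma adjusted p 0.565). A p above the threshold does not show equal levels, but the 95% confidence intervals bound the differences. All 61 lay within 1 log2 unit of 0 and 59 lay within 1.5-fold.

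**Figure D4:**
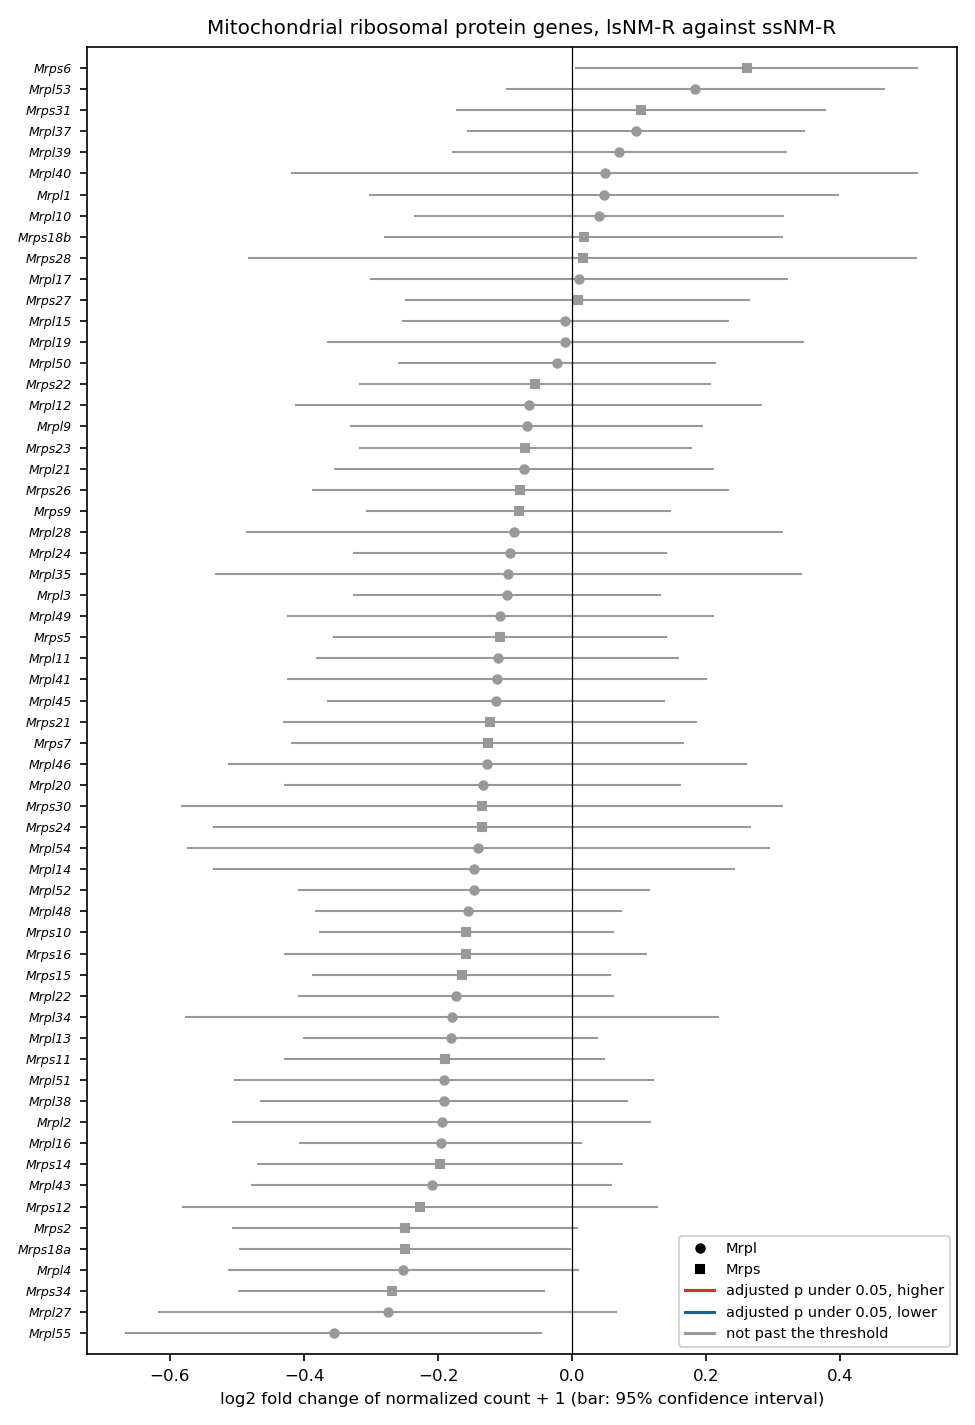
Log2 fold change of normalized count + 1 in lsNM-Rs against ssNM-Rs (x axis) for each of the 61 genes, ranked; bars are 95% confidence intervals, circles are Mrpl and squares Mrps genes, and all are grey because none passed the threshold. Of the 61 points 49 are below 0, and the widest interval reaches 0.67 log2 units from 0.

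Single spleens also stood out within the groups. Mouse 1 had the lowest value of the 3 mice in 47 of the 61 genes, where it was lowest in 38.4% of all genes, and mouse 3 had the highest in 49, against 34.8%. Within lsNM-Rs, animal 1 was lowest in 41 genes (34.0% of all genes) and animal 4, the only female, was highest in 40 (31.5%). The 9 erythroid markers summed to 24102, 54161 and 68082 normalized counts in mice 1, 2 and 3 and to 138199 to 204916 in NM-Rs. The 6 cell cycle genes summed to 6568, 10707 and 13590 in mice and to 26355 to 39134 in NM-Rs. Both lists were thus lowest in mouse 1 as well. In lsNM-Rs animal 1 had an erythroid sum of 167414, between animals 5 and 4 at 140330 and 196823. The part of these cells in the difference of the mitochondrial ribosomal protein genes was not tested.

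The mouse genome places many of these genes head to head with a neighbour. In mm9 22 of the 61 (36.1%) had a coding gene on the opposite strand whose start lay within 1000 bases, head to head, against 13.2% of 10440 coding genes of the table. In 1 such pair, Mrpl46 and Mrps11, both genes are mitochondrial ribosomal proteins. The 22 include pairs that overlap at their starts, such as Mrpl46 and Mrps11 (gap between starts -412 bases) and Mrpl48 and Rab6 (-887). A head-to-head neighbour was found in 16 of the 40 genes called higher, 0 of the 7 called lower and 6 of the 14 not called.

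Many nuclear genes for mitochondria are known targets of the ETS factor GABP and of NRF1, which act on the respiratory chain too. The window from 250 bases before to 50 after each mouse gene start was searched on both strands. The GABP-type ETS letters CCGGAAG were in 37.7% of the 61 promoters and in 13.6% of 10439 promoters of the table. The NRF1 letters (GCGCA, any base, then GCGC) were in 13.1% and 7.86%, and the YY1 letters AAGATGGCG in 8.20% and 2.44%. The SP1 letters GGGCGG were in 45.9% and 58.3%, the NF-Y letters CCAAT in 37.7% and 36.8%, and the E box of MYC, CACGTG, in 4.92% and 9.22%. A match of 1 motif may share bases with a match of another. The ETS letters were in 15 of the 40 genes called higher, 3 of the 7 called lower and 5 of the 14 not called. A match is a description of letters in a window and not a bound site, and the windows are of the mouse genome alone.

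**Figure D5:**
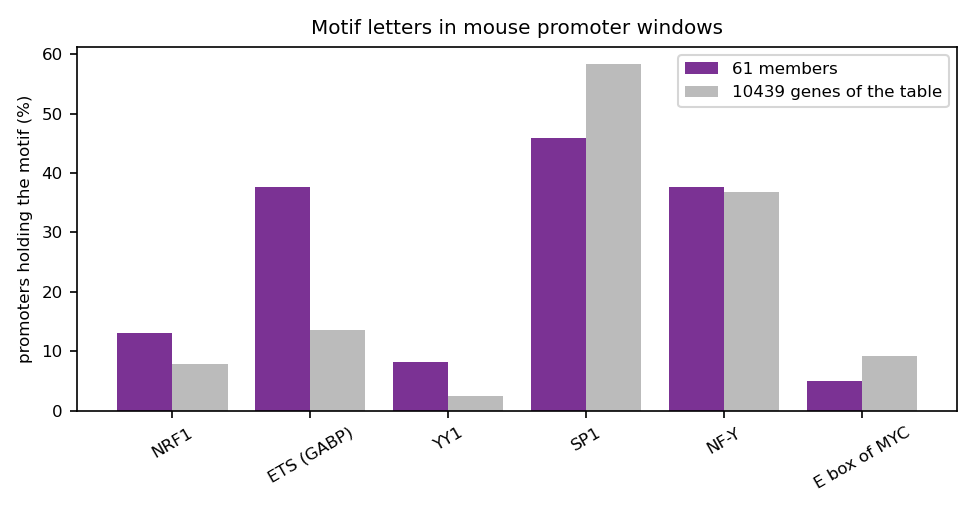
Share of mouse promoters (y axis, %) that hold each of 6 motifs (x axis) within 250 bases before to 50 after the gene start, for the 61 mitochondrial ribosomal protein genes (purple) and 10439 genes of the table (grey). ETS letters stand at 37.7% against 13.6% and SP1 letters at 45.9% against 58.3%.

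In 17 genes ETS or NRF1 letters fell within the last 70 bases before the start, ETS in 13 and NRF1 in 4. The 8 of these described above whose stretch holds no annotated exon are given so that the letters can be set beside the expression values, 5′ to 3′ on the strand of the gene, in mm9 and ending at the base before the start. Capitals mark the ETS or NRF1 letters on either strand. Mrps22, Mrpl45, Mrpl43, Mrps10 and Mrps18a were higher in NM-Rs, Mrpl12 and Mrps16 did not pass, and Mrpl52 was lower. The stretches are chr9:98502099-98502168 (minus strand), chr11:97176960-97177029 (plus), chr19:45080933-45081002 (minus), chr17:47505766-47505835 (plus), chr17:46247865-46247934 (plus), chr11:120345857-120345926 (plus), chr14:21212778-21212847 (minus) and chr14:55045676-55045745 (plus), in the order of the lines.
Mrps22: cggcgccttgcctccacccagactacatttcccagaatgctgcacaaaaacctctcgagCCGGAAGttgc
Mrpl45: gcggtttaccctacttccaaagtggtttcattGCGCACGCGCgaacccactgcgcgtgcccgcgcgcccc
Mrpl43: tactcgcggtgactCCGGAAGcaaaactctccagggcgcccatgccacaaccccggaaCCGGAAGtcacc
Mrps10: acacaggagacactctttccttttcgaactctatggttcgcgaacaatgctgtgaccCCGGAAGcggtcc
Mrps18a: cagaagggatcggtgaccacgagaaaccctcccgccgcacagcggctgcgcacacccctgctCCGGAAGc
Mrpl12: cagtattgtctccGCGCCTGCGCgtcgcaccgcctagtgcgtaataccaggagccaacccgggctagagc
Mrps16: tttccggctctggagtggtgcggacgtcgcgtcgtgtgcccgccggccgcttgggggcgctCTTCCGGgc
Mrpl52: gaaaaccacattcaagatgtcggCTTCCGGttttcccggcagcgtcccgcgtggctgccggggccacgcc

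The ribosome also holds proteins whose genes carry other names, and 7 of 7 listed ones were in the table. Of these 4 were higher, 1 was lower and 2 did not pass (NM-R against mouse, limma). Dap3, a GTP-binding protein of the small subunit, had 716, 751 and 877 counts in mice and 1418 to 1747 in NM-Rs, a 2.07-fold rise (limma adjusted p 2.8e-06). Mrp63 and Gadd45gip1 of the large subunit rose 2.70-fold and 2.10-fold, and Ptcd3, an RNA-binding protein of the small subunit, rose 1.39-fold. Aurkaip1, a small-subunit protein, had 584, 630 and 727 counts in mice and 208 to 343 in NM-Rs, 2.26-fold lower in NM-Rs on the means (limma adjusted p 3.14e-05). Chchd1 and Ict1 had log2 fold changes of 0.09 and -0.15 and did not pass.

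Genes that build and run the mitochondrial ribosome moved in both directions. Of 23 assembly genes in the table (30 listed), 13 were higher and 5 lower than in mice, with a median log2 fold change of 0.66. Mrm2, which methylates the large ribosomal RNA, had 80.3, 95.7 and 119 counts in mice and 387 to 565 in NM-Rs, 4.94-fold higher. Rpusd4, a pseudouridine synthase acting on the same RNA, had 349, 440 and 389 in mice and 90.3 to 164 in NM-Rs, with a log2 fold change of -1.76. Of 11 translation factors (13 listed), 6 were higher and 2 lower, with a median of 0.36. The recycling factor Mrrf rose 3.17-fold, and the initiation factor Mtif3 fell by 1.05 on the log2 scale. Of 4 genes of mitochondrial transcription and RNA stability (7 listed), 1 was higher and 3 did not pass. The gene called was Slirp, a binding partner that stabilises mitochondrial messenger RNAs, at 2.11-fold, while Polrmt, the mitochondrial RNA polymerase, had 621 to 657 counts in mice and 566 to 722 in NM-Rs.

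Other nuclear genes for translation and respiration gave smaller medians in NM-Rs against mice. Of 32 cytosolic ribosomal protein rows 7 were higher, 8 were lower and 17 did not pass, with a median log2 fold change of 0.00. Of 62 rows of nuclear-encoded respiratory chain subunits, partners of the proteins that the mitochondrial ribosome makes, 33 were higher, 14 were lower and 15 did not pass, with a median of 0.33. The medians were not tested against one another. Among 6 regulators of nuclear genes for mitochondria (9 listed), 3 were higher, 1 was lower and 2 did not pass. The lowest log2 fold change of the 6 was that of Esrra, at -0.44. Gabpa, the DNA-binding subunit of GABP, had 1117 to 1199 counts in mice, 1289 to 1493 in ssNM-Rs and 1658 to 1883 in lsNM-Rs, 1.36-fold higher in NM-Rs (limma adjusted p 0.000594). Its difference between the cohorts, 0.34 on the log2 scale, had a limma adjusted p of 0.442. Nrf1 had 839 to 1087 counts in mice and 698 to 1006 in NM-Rs and did not pass. The mitochondrial biogenesis gene Ppargc1a was sparse, with 19.9 to 43.5 counts in mice and 34.5 to 63.3 in NM-Rs.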

How the data were processed

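Spleen RNA of 9 animals was analysed, 1 library each, with groups taken from the sample labels; the 3 spleens of a group are separate animals. The members, lists and tests were chosen with earlier results of these data known.

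Per the methods and labels, the authors aligned reads with STAR 2.5.3a to mm9 (mouse) or hetGla2 (NM-R), counted them per gene with HTSeq 0.10.0, gave NM-R genes mouse names through biomaRt, and scaled each library by its DESeq2 size factor. The deposited signal values are these normalized counts. Whether counting used strand is not given in the sources used here. Without that, reads of genes that overlap on opposite strands cannot be told apart. For genes that overlap on the same strand, such as Mrpl53 and Ccdc142, strand would not separate the reads. The labels and the methods name different kits and instruments. In each library 100% of values were whole multiples of 1 step (tolerance 0.001), which gave whole reads.

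Log2(normalized count + 1) was fitted in limma 3.58.1 (R 4.3.3) with 1 mean per group over all 9 spleens and a variance trend. Tests were 2-sided, adjusted by Benjamini-Hochberg over 12946 genes, with a threshold of 0.05. Folds are ratios of mean normalized counts. Scripts were tested on simulated data. Gene positions come from GENCODE M1 on mm9, in which all 61 symbols were found. Copies were sought with minimap2 2.31-r1302 at 95% identity over 50% of a transcript.

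Named were the 10 highest and 10 lowest log2 fold changes among genes called with a mean of at least 10 in every group, the 5 smallest p between cohorts, the 5 highest and 5 lowest mouse levels per kb, genes of known role, and, of the other lists, chosen subunits and the highest and lowest called. As 7 genes were called lower, the 10 lowest include 3 called higher. Ccdc142, Slc5a3, Rrnad1, Gabpa, Nrf1, Ppargc1a and Esrra were added after their values were seen. Alternatives were other pseudocounts, filters and scalings, edgeR 4.0.16 and DESeq2 1.42.0 on the recovered reads, each spleen left out, and sample number as a block. Per edgeR 5163 genes were higher and 4948 lower in NM-Rs. Marker lists of granulocytes (5 of 5 higher), liver (2 of 5 higher) and pancreas (2 of 3 higher, 1 lower) were also read. The liver markers summed to 2818 normalized counts in ssNM-R 6, to 124 and 357 in ssNM-Rs 2 and 3 and to 243 to 907 in lsNM-Rs. What this meant for the cohort comparison was not tested. The rows of cytosolic ribosomal proteins and respiratory subunits follow from symbols and include Rps19bp1, Atp5sl and Atp5if1, which are not such subunits.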

Additional observations from a re-analysis of the deposited data

Results flagged for a closer look

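Mrpl48, a large-subunit protein, was low in 1 NM-R spleen. lsNM-R 1 had 486 normalized counts, while the other 5 NM-R spleens lay between 568 and 610. The gap to the nearest spleen took 0.659 of the whole range of the 6, above Dixon's 95% critical value for 6 samples. The test was run on the 35 genes described by name, and chance alone flags about 1 in 20.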

How the results depend on the processing

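Counts and medians of the mitochondrial ribosomal protein genes were recomputed under 21 alternatives. In NM-Rs against mice, 28 to 43 genes were called higher, the lowest count being that of the 40 genes whose exons overlap no other gene, an alternative chosen after seeing the data, with a median log2 fold change of 0.68. The count called lower was less stable. It was 3 with each spleen rescaled to the same upper quartile and 3 to 8 when each spleen was left out in turn, 3 without mouse 2 or 3 and 4 without lsNM-R 1. In lsNM-Rs against mice it was 4 with the upper quartile and 3 to 7 with 1 spleen left out, 3 without mouse 2, mouse 3 or lsNM-R 1. The upper quartile took the median log2 fold change of ssNM-Rs against mice to 0.72. The cause of these shifts was not tested. In lsNM-Rs against ssNM-Rs no member was called under any alternative. With 1 spleen left out, the median ran from -0.18 without lsNM-R 4 to -0.07 without lsNM-R 1. With sample number as a block, a fit that leaves lsNM-R 1 alone in its cohort, it was 0.0083.

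The sample numbers of mice and NM-Rs do not pair the animals; deviations of same-numbered spleens correlated at 0.01, -0.0045 and 0.00076. Numbers 4, 5 and 6 occur in 1 spleen each. A replicate block by number therefore gives lsNM-R 4, lsNM-R 5 and ssNM-R 6 no weight. The lsNM-R side of that fit rests on lsNM-R 1 alone and the ssNM-R side on animals 2 and 3. With the block the median of lsNM-Rs against ssNM-Rs was 0.0083, and without it -0.11. No called gene changed direction. Genes near 0 did, in comparisons in which they were not called. With 1 spleen left out, Mrpl12 against mice ran from -0.084 to 0.14 in NM-Rs, from -0.051 to 0.17 in ssNM-Rs and from -0.12 to 0.15 in lsNM-Rs. Mrps16 ran from -0.037 to 0.10 in NM-Rs and from -0.12 to 0.039 in lsNM-Rs, and Mrps34 from -0.015 to 0.094 in lsNM-Rs. With equal totals Mrpl12 was at -0.0012 in NM-Rs and -0.027 in lsNM-Rs, Mrps16 at -0.0032 in NM-Rs and Mrps34 at -0.018 in lsNM-Rs. With the upper quartile Mrps16 was at 0.062 in lsNM-Rs. With the block Mrpl12 was at -0.039 in NM-Rs and -0.12 in ssNM-Rs, and Mrps16 at 0.010 in lsNM-Rs. A fit of the compared groups alone is the same as the fit of all groups for NM-Rs against mice.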
